A study of Mus musculus with 2 samples.

Results

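The genes described here make cholesterol and fatty acids or control that synthesis: 33 of the 32285 genes counted in tumour-infiltrating cells of a mouse melanoma. They were chosen by symbol, as targets and regulators of the SREBP transcription factors, and all 33 symbols were found in the files. They comprise 6 mevalonate enzymes, 3 enzymes that make squalene and lanosterol, 7 enzymes that act after lanosterol, 5 SREBP factors and their binding partners, the sterol carrier Stard4, 5 enzymes of fatty acid synthesis, and 6 desaturases and elongases. The study examined the immune cells of tumours that lack DGAT1. DGAT1 is the enzyme that joins a fatty acid to diacylglycerol to make triglyceride. B16-F10 melanoma cells, a transplantable mouse tumour line, were grown under the skin of mice, and living CD45+ cells were sorted on day 14 from DGAT1-knockout or WT tumours, 3 tumours in each group. No mouse strain, age, guide or clone is given in the labels. Each group has 1 droplet single-cell library, and its cells carry no tumour of origin. With 1 library a group there is no test, so every comparison below describes these 2 libraries.

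Cells sense sterol in the membrane of the endoplasmic reticulum. When sterol is low, Scap carries the SREBP proteins to the Golgi, where they are cut, and the released part switches on the genes of synthesis and uptake in the nucleus. When sterol is high, Insig1 and Insig2 hold Scap back. SREBP2, the product of Srebf2, acts mainly on sterol genes, and SREBP1, the product of Srebf1, mainly on fatty acid genes. The mevalonate steps turn acetyl-CoA into farnesyl diphosphate, which feeds sterols and also the lipid tails of many proteins. Activated T cells and dividing tumour cells are known to run these pathways to build membrane.

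The promoters are shown because the members were grouped as targets of 1 family of factors, and these letters are what such factors and their partners read. SREBPs bind the sterol regulatory element, searched as TCACNCCAC, and also E-boxes, searched as CACGTG. They act with NF-Y, whose box was searched as CCAAT. Each search covered both strands of the 250 bases before and 50 bases after each RefSeq start (GRCm38.p6, the mm10 assembly), and matches of different motifs can share end bases. RefSeq promoters were at hand for 26 of the 33 members. An NF-Y box was present in 22 of these 26 (84.6%), compared with 41.1% of 27025 genes. The E-box was present in 6 of 26 members (23.1%) and in 8.09% of genes, and the sterol element in 1 of 26 members (3.85%) and in 1.44% of genes. The motifs and the promoters to print were chosen after the values were seen. A match is a description of the letters only. The stretches below are the 180 bases before the start, 5′ to 3′, with the matches in capitals. Hmgcs1 holds the sterol element and Elovl5 an E-box. Idi1, Cyp51, Mvd, Ebp and Elovl5 were among the members that differed by at least 1.5-fold in a cell class.
Hmgcs1 (chr13:119690171-119690350, strand +): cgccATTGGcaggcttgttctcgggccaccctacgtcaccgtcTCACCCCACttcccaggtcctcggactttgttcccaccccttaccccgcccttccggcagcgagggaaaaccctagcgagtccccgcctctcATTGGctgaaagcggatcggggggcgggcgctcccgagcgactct
Idi1 (chr13:8885426-8885605, strand +): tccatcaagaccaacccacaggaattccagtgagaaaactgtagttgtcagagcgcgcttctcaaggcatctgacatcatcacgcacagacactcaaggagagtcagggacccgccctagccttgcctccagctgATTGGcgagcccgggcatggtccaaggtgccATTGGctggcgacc
Cyp51 (chr5:4104698-4104877, strand −): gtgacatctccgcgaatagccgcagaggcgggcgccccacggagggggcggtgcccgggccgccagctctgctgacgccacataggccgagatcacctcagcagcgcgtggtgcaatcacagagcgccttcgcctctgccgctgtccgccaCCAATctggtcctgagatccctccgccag
Mvd (chr8:122443423-122443602, strand −): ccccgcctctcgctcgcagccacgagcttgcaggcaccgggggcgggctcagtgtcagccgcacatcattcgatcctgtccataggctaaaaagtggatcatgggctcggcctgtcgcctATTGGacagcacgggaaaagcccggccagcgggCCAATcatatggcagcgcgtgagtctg
Ebp (chrX:8193513-8193692, strand −): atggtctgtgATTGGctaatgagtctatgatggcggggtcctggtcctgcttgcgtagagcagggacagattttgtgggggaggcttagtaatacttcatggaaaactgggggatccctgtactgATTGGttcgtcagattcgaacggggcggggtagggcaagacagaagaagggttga
Elovl5 (chr9:77917185-77917364, strand +): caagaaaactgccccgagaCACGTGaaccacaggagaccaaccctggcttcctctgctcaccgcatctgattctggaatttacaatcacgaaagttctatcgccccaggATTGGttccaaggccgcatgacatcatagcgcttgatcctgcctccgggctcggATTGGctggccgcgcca

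Totals were 202946827 UMIs (unique molecules counted) for the knockout library and 235652476 for WT. The filters kept 10979 and 9060 cells, whose median depth was 10774 and 14073.5 UMIs. Of their barcodes, 24 occurred in both libraries. Cells were assigned to classes by marker genes, and UMIs of each gene were summed per class and library and scaled to CPM, the gene's share of all UMIs of the class in that library. Paired values give the knockout first, then WT. The named immune classes that reached 100 cells per library were CD8 T-like (2378 and 1808 cells), NK-like (535 and 240), macrophage-like (1621 and 3001), monocyte-like (2421 and 1011), neutrophil-like (248 and 117), cDC1-like (166 and 164), cDC2-like (426 and 134) and mature dendritic-like (273 and 155). Melanoma-like cells (153 and 510), which should lack CD45, had passed the sort; Ptprc, the gene of CD45, stood at 28.7 and 28.2 CPM in them. Dgat1 itself stood at 18.4 and 28.8 CPM in melanoma-like cells, lower in the knockout library but not absent (log2 ratio -0.65, -0.92 to -0.39), and the position of the edit is not given. Free RNA was estimated from genes of other cell types, counting all their UMIs in a class as free RNA. On this count it could make up 19.8% and 9.63% of the UMIs of melanoma-like cells. UMIs of merged cells, or the class's own UMIs of these genes, would raise the estimate, and their part was not tested. In immune classes the estimate lay between 3.5% in CD8 T-like cells and 19.6% in neutrophil-like cells. All intervals are exact at 95% and cover only the error of counting. They leave out the spread between cells of a library and the spread between tumours.

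By summed UMIs, melanoma-like cells were the class most often highest for the members, and a dendritic class most often led among immune cells. The share of all genes highest in these classes was not computed, so the counts cannot be read as particular to the members. Of the 33 members, 28 had the same highest class in both libraries, and for 18 that class was melanoma-like (12 when each cell was scaled alike). A dendritic class (cDC1-like, cDC2-like or mature dendritic-like) led the immune classes in both libraries for 18 members. That count was not repeated with each cell scaled alike. The order of the 9 classes had a median Spearman rho of 0.90 between the libraries, with the lowest at 0.13 for Me1, which is near 0 in immune cells. These libraries differ in genotype and are not replicates.

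Among the mevalonate enzymes, Hmgcs1, which makes HMG-CoA, was highest in cDC2-like cells at 136 and 117 CPM and lowest in neutrophil-like cells of the knockout library and macrophage-like cells of the WT library. Pmvk and Idi1, which act on mevalonate phosphate and on isopentenyl diphosphate, were both highest in mature dendritic-like cells. Pmvk reached 130.0 and 169 CPM there and Idi1 109.6 and 100.3 CPM, in each case apart from the next class by their intervals in both libraries. Fdps, the farnesyl diphosphate synthase, was highest in melanoma-like cells at 326 and 387 CPM, followed by cDC1-like cells at 201 and 216 CPM. Srebf2 was highest in cDC1-like cells at 203 and 193 CPM and lowest in macrophage-like cells at 52.2 and 41.0 CPM, with the same order of all 9 classes in both libraries. The cDC1-like and cDC2-like levels of Srebf2 overlapped by their intervals in the knockout library.

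A few members left this order. Elovl6, which lengthens palmitate, was highest in NK-like cells at 142 and 108 CPM, well above melanoma-like cells at 57.5 and 40.1 CPM. Acss2, which makes acetyl-CoA from acetate, was also highest in NK-like cells, at 39.7 and 34.8 CPM, though not apart by interval from neutrophil-like cells in WT. Stard4 was highest in CD8 T-like cells (46.6 and 45.1 CPM), and Sc5d, a late sterol desaturase, in neutrophil-like cells (51.8 and 39.1 CPM), not apart from melanoma-like cells in WT. Me1 and Scd1 were found mainly in melanoma-like cells. Me1, malic enzyme, which supplies NADPH, stood at 69.2 and 55.8 CPM in melanoma-like cells, 39.7-fold and 15.4-fold above the highest immune class. Scd1, a stearoyl-CoA desaturase, stood at 59.9 and 41.1 CPM, 25.5-fold and 18.2-fold above. Its relative Scd2 was highest there too, at 476 and 367 CPM, but was also found in immune cells, at 80.8 CPM in cDC1-like cells of the knockout library.

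**Figure D1:**
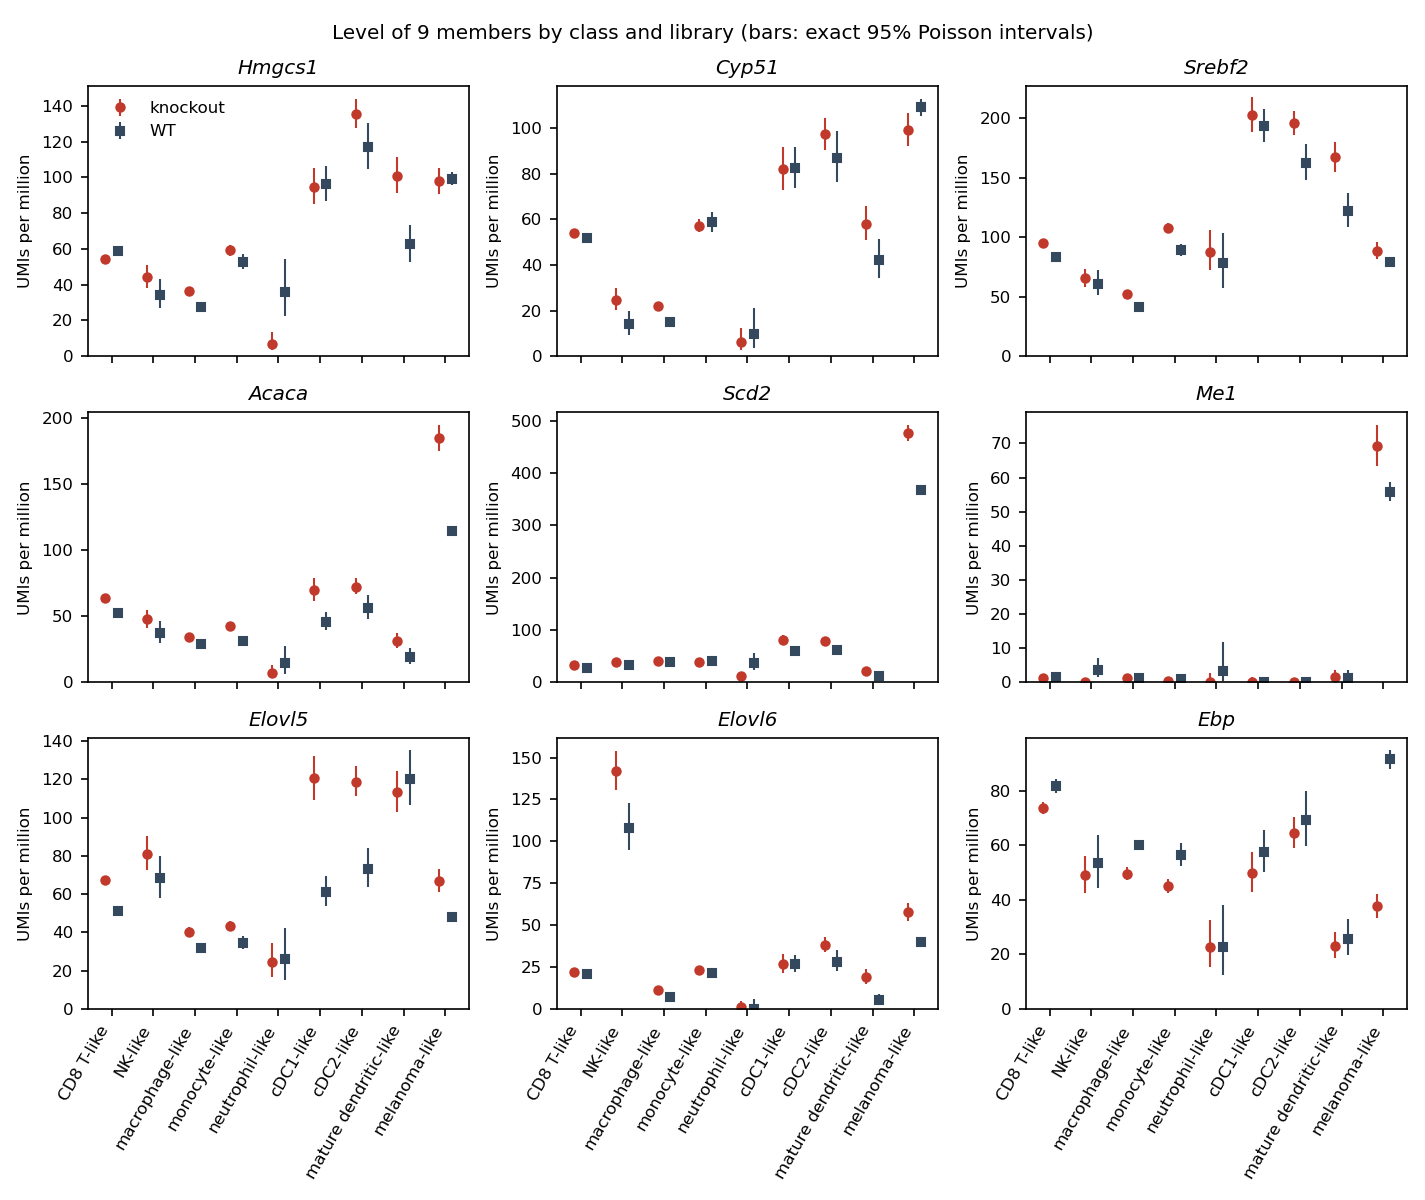
Level of 9 members (CPM, linear axis from 0) in each class, with the knockout library as circles and the WT library as squares; bars are exact 95% Poisson intervals. Hmgcs1 and Srebf2 are high in dendritic classes, Acaca, Scd2 and Me1 in melanoma-like cells, and Elovl6 in NK-like cells in both libraries. Cyp51 is highest in melanoma-like cells, followed by cDC2-like cells, in both libraries, but the intervals overlap in the knockout library. With each cell scaled alike, Cyp51 is highest in cDC2-like cells in both libraries.

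The comparison of the libraries asks whether synthesis genes stood at another level in cells from DGAT1-knockout tumours. A ratio was taken for members with at least 50 UMIs in a class over both libraries, and a difference of at least 1.5-fold was counted. The share of all genes past 1.5-fold, given beside each count, is the background. The members' median lay furthest from that of all genes in mature dendritic-like cells, at 0.41 over 24 members against 0.09, and in macrophage-like cells, at 0.23 over 33 against 0.0035. In cDC2-like cells it was 0.21 against 0.10, and in NK-like cells 0.20 against 0.09. In the other 4 classes with at least 10 members counted, the median of the members was no higher than that of all genes. The melanoma list of 9 genes was used as a rough guide to free tumour RNA in immune cells. Its median was lower in the knockout library in all 8 immune classes, between -1.98 and -0.79. Not each gene followed: 2 of 9 were above 0 in macrophage-like cells, and 1 gene was past 1.5-fold higher in cDC1-like and in mature dendritic-like cells. In macrophage-like cells the list summed to 742 and 701 CPM. Pmel, Mlana, Tyrp1, Dct, Tyr and Slc45a2 together made up 73.4 and 163 CPM of this. The rest came from Gpnmb, Sox10 and Mitf, so the sum cannot be read as tumour RNA alone. The summed list lay between 36.7 and 742 CPM over the immune classes of the knockout library and 95.9 and 841 CPM in WT, and none of its genes was at 0. With free RNA subtracted the members' median was 0.21 in macrophage-like and 0.45 in mature dendritic-like cells, and 3 members of CD8 T-like cells were past 1.5-fold in place of 0.

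**Figure D2:**
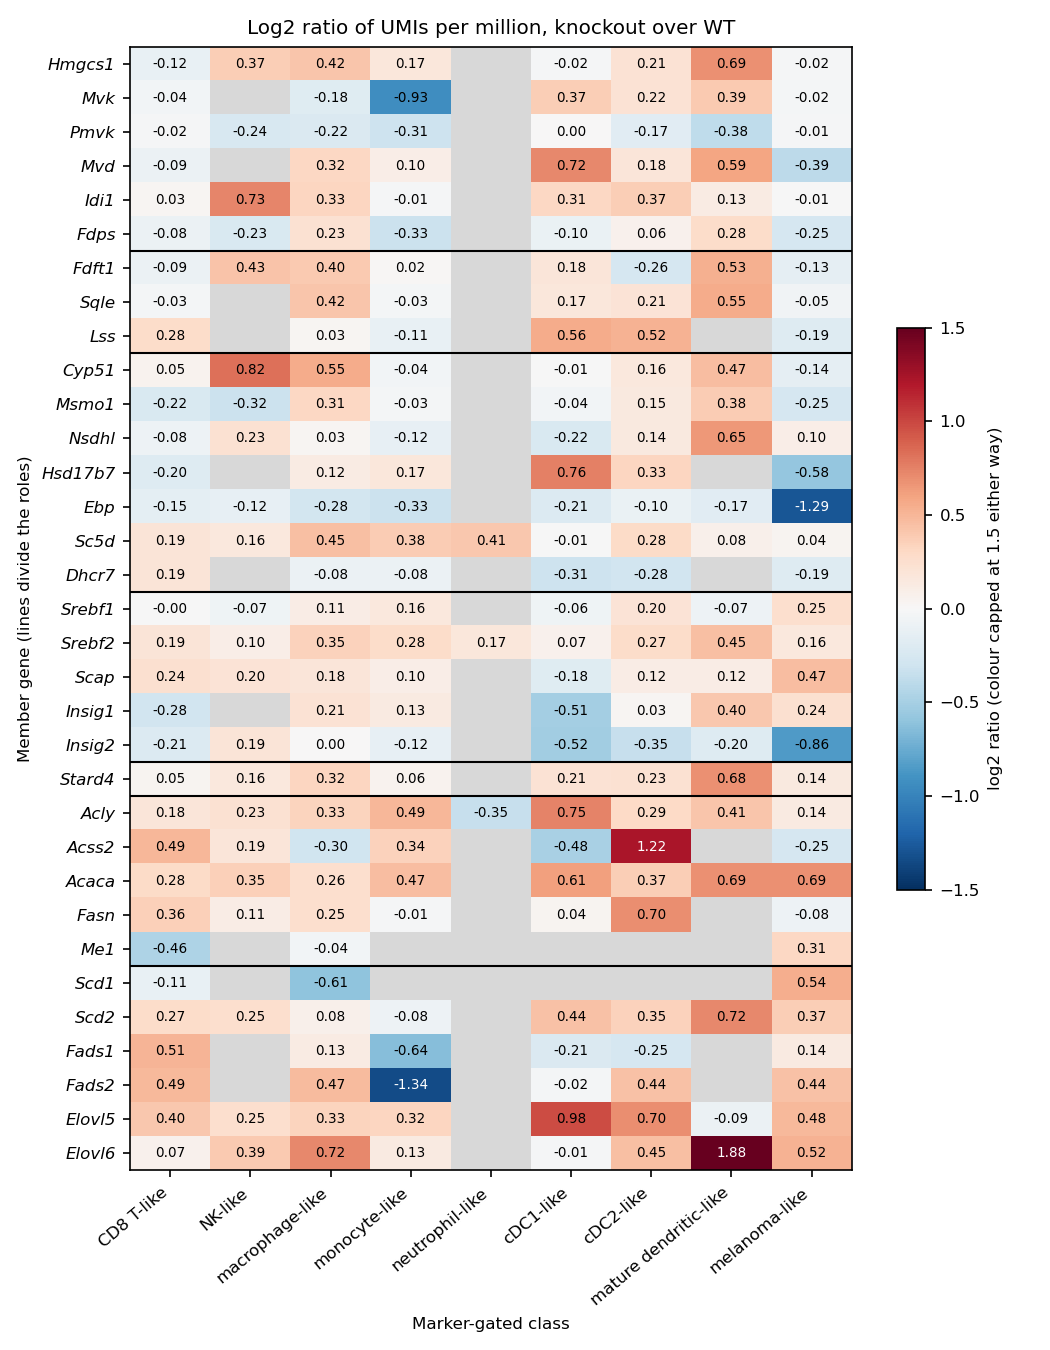
Log2 ratio of CPM, knockout over WT, for each member (rows, grouped by role) in each class (columns); grey marks members with under 50 UMIs in the class, and colours stop at 1.5 in either direction. The mature dendritic-like column is mostly above 0 (median 0.41), Ebp is below 0 in every class shown, and Ebp and Insig2 are lowest in melanoma-like cells.

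In melanoma-like cells, the cells that carry the knockout, 1 of 33 members was at least 1.5-fold higher and 2 were lower, against 6.31% and 8.76% (15.1% either way) of 12288 genes. The median of -0.01 was close to that of all genes, 0.01. Ebp, the sterol isomerase that acts on zymostenol, was at 37.6 CPM (33.3 to 42.2) in the knockout library and 91.6 CPM (88.1 to 95.1) in the WT library, a log2 ratio of -1.29 (-1.47 to -1.11). Insig2 was at 81.7 CPM (75.4 to 88.4) and 148 CPM (144 to 152), a log2 ratio of -0.86 (-0.98 to -0.73). For both genes the libraries' intervals stood apart, and both stayed at least 1.5-fold lower under all 17 other settings tried. Acaca, the acetyl-CoA carboxylase that commits carbon to fatty acids, was higher, at 185 CPM (175 to 195) and 115 CPM (111 to 119), a log2 ratio of 0.69 (0.60 to 0.78). Few cells held much of these counts: 10 cells held 45.8% and 13.4% of the Ebp UMIs and 37.6% and 14.8% of the Acaca UMIs. Free RNA could account for 30.9% and 8.96% of the Ebp UMIs, and with free RNA subtracted its log2 ratio was -1.54. For Acaca, the log2 ratio without the 10 leading cells of each library was 0.49. It was also under 1.5-fold at 5% mitochondrial UMIs (0.55), against genes of like span (0.41) and with each cell scaled alike (0.39).

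The 6 desaturases and elongases in melanoma-like cells were all above 0, with a median of 0.46 and none past 1.5-fold. Scd2, the most abundant member within 1.5-fold, had 476 and 367 CPM and a log2 ratio of 0.37 (0.32 to 0.43). All 6 mevalonate enzymes were below 0, with a median of -0.02 and the lowest value for Mvd, at -0.39 (-0.64 to -0.14); 2 of the 6 intervals lay below 0. Fdps had 326 and 387 CPM (log2 ratio -0.25, -0.31 to -0.19), Msmo1, a C4 sterol oxidase, 95 and 113 CPM (log2 ratio -0.25, -0.37 to -0.13), and Acly, which makes acetyl-CoA from citrate, 124 and 113 CPM (log2 ratio 0.14, 0.03 to 0.24). In the larger melanoma-like cells, those with at least 10000 UMIs (63 and 234 cells), 1 member was past 1.5-fold higher and 2 lower, against 6.89% and 8.42% of genes. These cells held 7354405 of 7561585 and 28982131 of 29655596 UMIs of the class, so their values largely repeat those of the whole class. Among these larger cells 13 of the 16 sterol enzymes were below 0 (median -0.13) and 9 of the 11 fatty acid genes above 0 (median 0.38). The median of all genes was 0.02 in them. The larger cells were set apart after the values were seen. The median depth of all melanoma-like cells was 4006 and 5947 UMIs. With cells thinned to 5000 UMIs the median of the members was 0.12, and with free RNA subtracted it was 0.04; under either, 6 members were past 1.5-fold in place of 3.

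**Figure D3:**
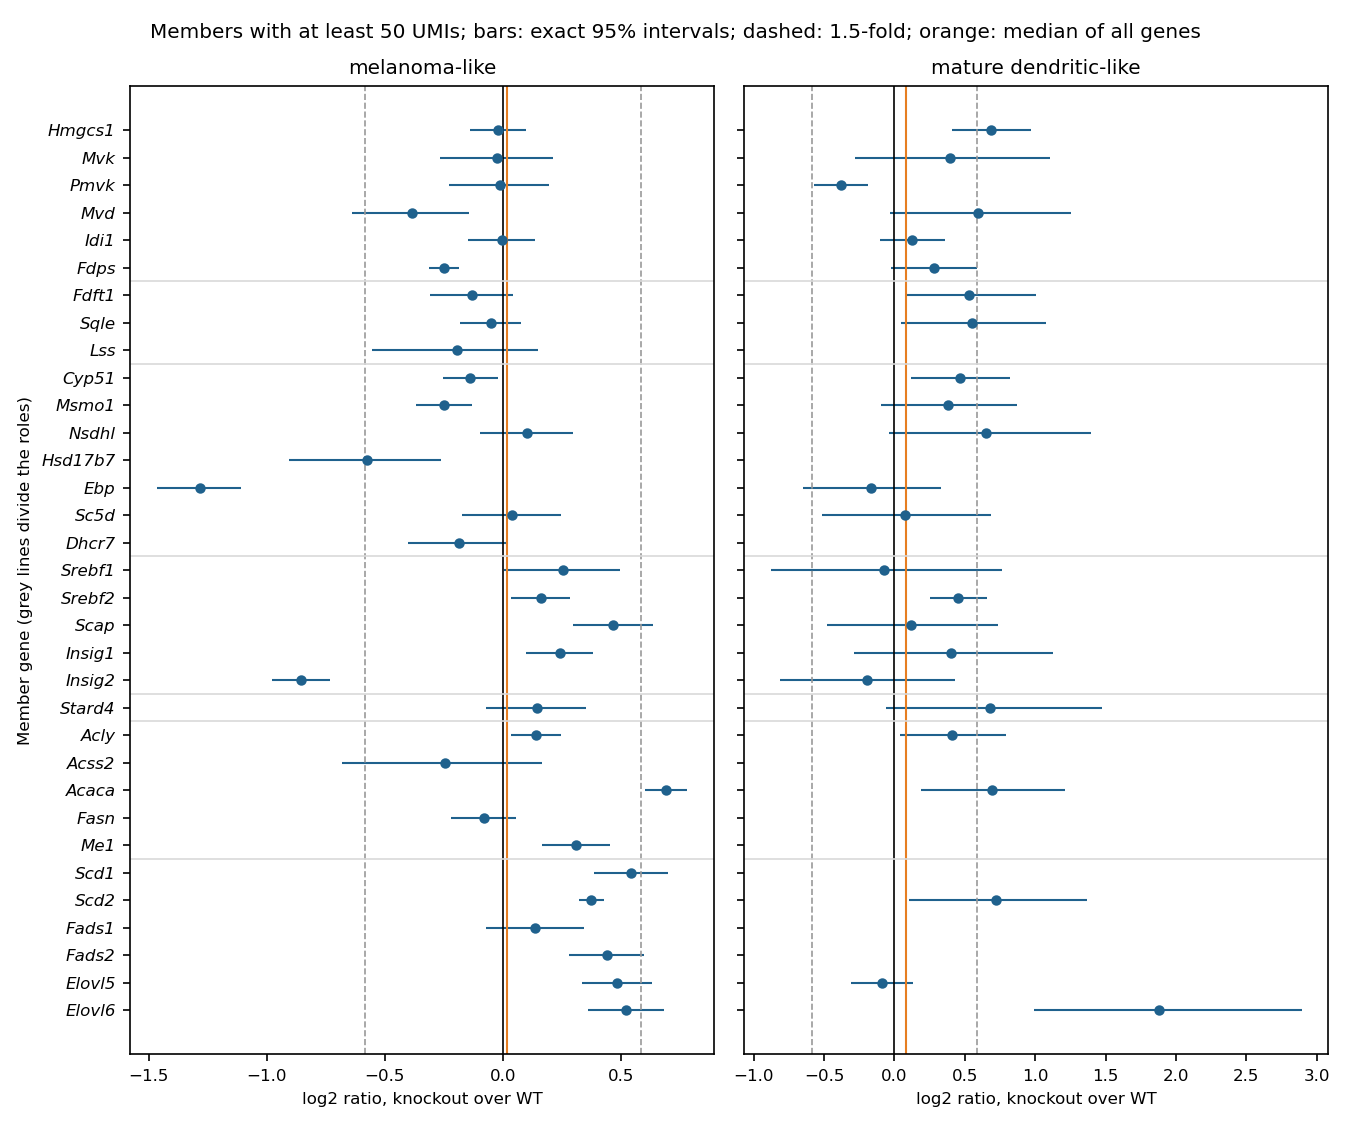
Log2 ratio, knockout over WT, of members with at least 50 UMIs in melanoma-like cells (left) and mature dendritic-like cells (right), with exact 95% intervals; dashed lines mark 1.5-fold and the orange line the median of all genes. Ebp and Insig2 stand far below 0 on the left, and on the right Elovl6 stands highest with a wide interval.

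In CD8 T-like cells all 33 members were within 1.5-fold, against 3.46% of 13286 genes higher and 6.62% lower (10.1% either way). The log2 ratios ran from -0.46 for Me1 to 0.51 for Fads1, a desaturase of long polyunsaturated fatty acids, with a median of 0.03 (all genes 0.05). By UMIs the most abundant members were Srebf2 at 95.3 and 83.2 CPM (log2 ratio 0.19, 0.14 to 0.25), Ebp at 73.5 and 81.6 CPM (log2 ratio -0.15, -0.21 to -0.09), Fdps at 74.2 and 78.7 CPM and Acly at 65.3 and 57.8 CPM. Mevalonate enzymes had a median of -0.06, fatty acid synthesis enzymes 0.28, and desaturases and elongases 0.34.

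The CD8 T-like cells were then split by cell cycle, after the values were seen. Cells with at least 10 cell cycle UMIs per 10000 made up 65.4% and 64.2% of the class. In these cycling cells (1555 and 1161) no member was past 1.5-fold, against 3.15% and 6.16% of genes, and the median was 0.03. In the 823 and 647 cells that were not cycling, 1 of 30 members was higher and 5 were lower, against 7.06% and 5.14% of 10838 genes, and the median was -0.19 against 0.10 for all genes. Here 15 of 16 sterol enzymes were below 0, with a median of -0.35. Hmgcs1 was at 36.8 CPM (33.3 to 40.6) in the knockout library and 57.0 CPM (52.7 to 61.6) in the WT library. Fdps was at 37.2 CPM (33.6 to 41.0) and 59.2 CPM (54.7 to 63.9), and Sqle, the squalene epoxidase, at 13.5 CPM (11.4 to 15.9) and 21.0 CPM (18.4 to 23.9). The intervals of the libraries did not overlap for any of these 3 genes. Mvk, the mevalonate kinase, was at 5.69 and 8.62 CPM and Me1 at 1.38 and 3.41 CPM, the latter on 15 and 38 UMIs. Acss2 was the member on the other side, at 15.8 and 9.97 CPM (log2 ratio 0.66, 0.31 to 1.02). Whether the ratios of cycling and other cells differ was not tested. In these non-cycling cells Gzmb, the gene of granzyme B, stood at 1166 and 2677 CPM and Prf1, the gene of perforin, at 570.2 and 1437 CPM, and their part in the members' ratios was not tested. In the whole class 7 of 12 dissociation stress genes were at least 1.5-fold lower.

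The clusters within these non-cycling cells were also unequal. Cluster 5 held 60.3% and 41.7% of them and cluster 19 held 10.6% and 30.1%. Within cluster 5, 15 of 16 sterol enzymes were again below 0 (median -0.31), and within cluster 19, 10 of 16 (median -0.10). Cluster 13 (113 and 76 cells) had 1 sterol enzyme counted, which was above 0. Of all members counted, 9 of 29 were above 0 in cluster 5, 15 of 29 in cluster 19 and 6 of 8 in cluster 13. Within each library most members were above 0 in cycling over other CD8 T-like cells, 27 of 32 in knockout and 27 of 31 in WT. In knockout 14 were at least 1.5-fold higher and 1 lower, against 16.7% and 19.3% of all genes. In WT 5 were higher and 2 lower, against 16.3% and 14.8%. The median log2 ratio of cycling over not cycling cells was 0.54 in knockout and 0.24 in WT cells, against -0.08 and -0.04 for all genes. Fasn, the fatty acid synthase, was higher in cycling cells by 1.31 and 1.23 log2 units, and Idi1 by 1.26 and 0.83. Acss2, Insig2 and Me1 had the opposite direction in both. Insig2 was at -0.27 and -0.56, Me1, with an interval that spanned 0 in knockout, at -0.25 and -1.57, and Acss2 at -1.46 and -1.27. Cycling cells were also deeper, with median UMIs of 25696 and 30966 against 11425 and 14287.

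**Figure D4:**
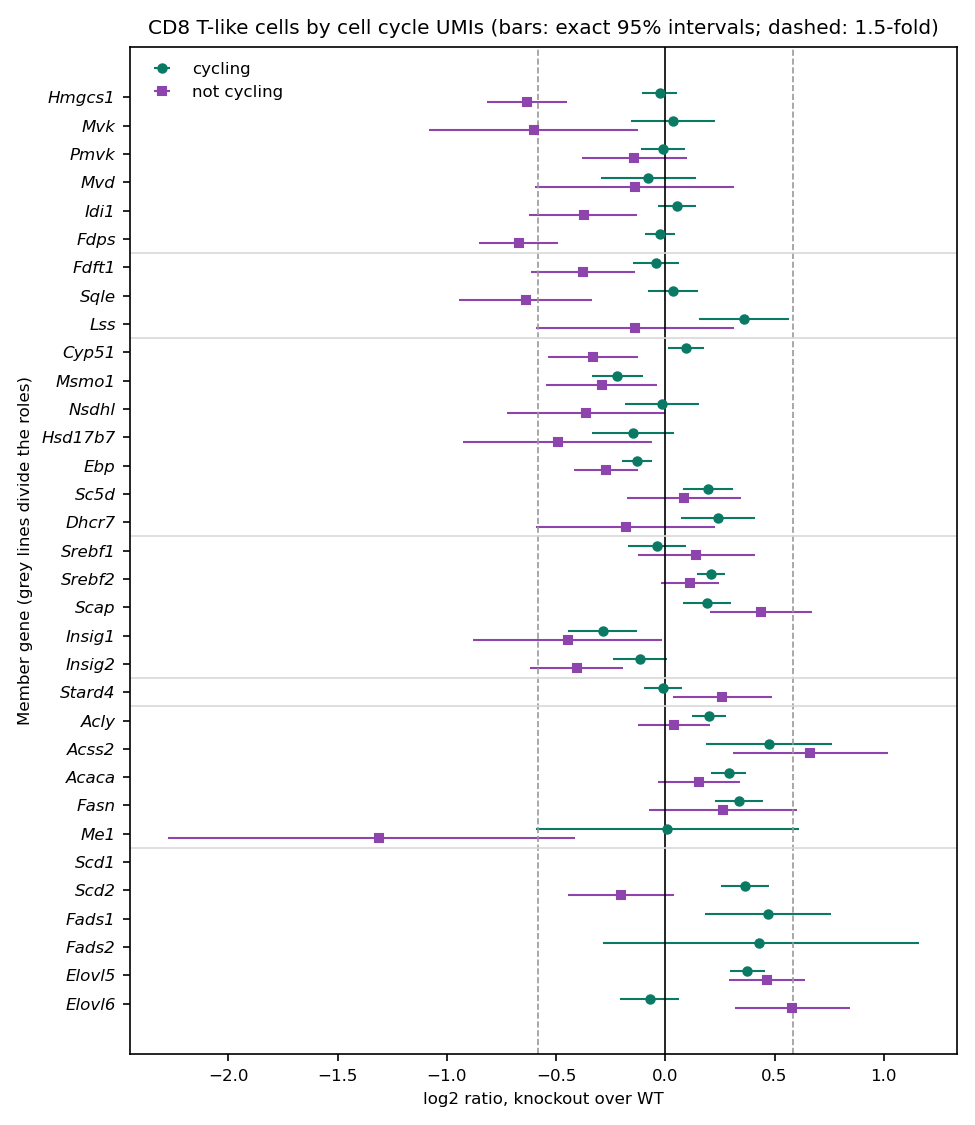
Log2 ratio, knockout over WT, of members with at least 50 UMIs in cycling (circles) and not cycling (squares) CD8 T-like cells, with exact 95% intervals and dashed lines at 1.5-fold. All circles lie within 1.5-fold, while the squares of 15 of 16 sterol enzymes lie below 0.

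In NK-like cells 22 members had enough UMIs. Of these, 2 were at least 1.5-fold higher and none lower, against 6.23% and 3.38% (9.61% either way) of 9052 genes. Cyp51, the lanosterol demethylase, was at 24.8 CPM (20.3 to 30.0) and 14.0 CPM (9.53 to 19.9), on 105 and 31 UMIs. Idi1 was at 21.7 CPM (17.5 to 26.6) and 13.1 CPM (8.79 to 18.8), on 92 and 29 UMIs. Their log2 ratios were 0.82 (0.23 to 1.45) and 0.73 (0.11 to 1.38). Both rested on few cells: 10 cells held between 53.3% and 62.1% of the UMIs of either gene in each library. Without cycling cells the Idi1 log2 ratio was -0.06, with each cell scaled alike it was -0.16, and with clusters in place of gates 0.50. Cyp51 fell under 1.5-fold in 4 of 14 other settings, with a lowest log2 ratio of 0.28. In this class 6 of 11 dissociation stress genes were at least 1.5-fold lower. The leading members Elovl6 (log2 ratio 0.39, 0.17 to 0.61), Elovl5 (log2 ratio 0.25, -0.03 to 0.54), Acly (log2 ratio 0.23, -0.05 to 0.53) and Srebf2 (log2 ratio 0.10, -0.20 to 0.41) were within 1.5-fold. Lss, Insig1, Mvk, Mvd, Sqle, Hsd17b7, Dhcr7, Me1, Scd1, Fads1 and Fads2 had too few UMIs for a ratio.

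In macrophage-like cells 26 of 33 members were above 0 and 18 had an interval above 0, against 50.6% and 28.9% of all genes. Of the members 1 was past 1.5-fold higher and 1 lower, against 6.98% and 5.31% (12.3% either way) of 13291 genes. The higher one was Elovl6, at 11.1 CPM (9.95 to 12.4) and 6.76 CPM (6.17 to 7.40), a log2 ratio of 0.72 (0.51 to 0.92); it fell under 1.5-fold in 3 of 17 other settings, with a lowest log2 ratio of 0.26. The lower one was Scd1, at 1 and 1.53 CPM on 30 and 107 UMIs, of which free RNA could account for 66.2% and 54.9%, and it came within 1.5-fold in 4 of 15 other settings. The leading members Acly (73.1 and 58.0 CPM, log2 ratio 0.33, 0.26 to 0.41) and Srebf2 (52.2 and 41.0 CPM, log2 ratio 0.35, 0.26 to 0.44) were above 0. Ebp (49.6 and 60 CPM, log2 ratio -0.28, -0.36 to -0.19) was below 0, and Scd2 (log2 ratio 0.08, -0.02 to 0.18) near it. The 3 enzymes that make squalene and lanosterol had a median of 0.40, and the 6 mevalonate enzymes 0.27. The mix of cells in this class differed between the libraries. Cluster 1 held 15.1% and 3.43% of it, cluster 18 held 5.74% and 12.0%, and cycling cells 20.3% and 31.3%. Macrophage markers summed to 8512 and 11000 CPM in the class, erythroid markers to 191.5 and 6.01 CPM, and mature dendritic markers to 34.3 and 5.31 CPM, with none of these markers at 0 in either library. The part of the other cell types in the members' ratios was not tested; 10 of 21 cell cycle genes were at least 1.5-fold lower. Within clusters the members' median ran from -0.32 in cluster 1 to 0.29 in cluster 2. With clusters weighted alike in both libraries the members' median for the class was 0.06 in place of 0.23. It was also 0.06 with cells thinned to 5000 UMIs and 0.11 with each cell scaled alike.

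In monocyte-like cells 31 members had enough UMIs, and their median was -0.01 (all genes 0.07). None was 1.5-fold higher and 3 were lower, against 5.82% and 4.49% (10.3% either way) of 11538 genes. Mvk was at 5.51 CPM (4.63 to 6.51) and 10.5 CPM (8.75 to 12.5), a log2 ratio of -0.93 (-1.29 to -0.57) that stayed past 1.5-fold under all 17 other settings. The other 2 were desaturases at low level. Fads2 was at 1.41 CPM (0.980 to 1.96) and 3.58 CPM (2.60 to 4.80), with 10 cells holding 81.8% of its WT UMIs. Free RNA could account for 37.6% and 18.0% of its UMIs. It stayed past 1.5-fold in 11 of 13 other settings, but not with cells scaled alike or clusters weighted alike. Its log2 ratio over the settings ran from -2.71 to -0.34. Fads1 was at 3.02 CPM (2.37 to 3.78) and 4.71 CPM (3.58 to 6.09), of which free RNA could account for 33.7% and 29.2%, and fell under 1.5-fold in 5 of 15 other settings. The abundant members Acly (124 and 88.1 CPM, log2 ratio 0.49, 0.39 to 0.60) and Srebf2 (108 and 89.0 CPM, log2 ratio 0.28, 0.18 to 0.38) had intervals above 0. Fdps (82.8 and 104 CPM, log2 ratio -0.33, -0.43 to -0.22) had an interval below 0, and Cyp51 (log2 ratio -0.04, -0.17 to 0.09) spanned it. In this class 13 of 21 cell cycle genes were at least 1.5-fold lower. In neutrophil-like cells 3 members had enough UMIs, Sc5d, Srebf2 and Acly, with log2 ratios of 0.41 (-0.29 to 1.15), 0.17 (-0.33 to 0.69) and -0.35 (-1.22 to 0.56); none was past 1.5-fold, against 9.81% and 11.2% (21.1% either way) of 4208 genes.

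In cDC1-like cells 5 of 31 members were at least 1.5-fold higher and none lower, against 7.92% and 4.11% (12.0% either way) of 9200 genes, while the median stayed at -0.01. Elovl5, an elongase of polyunsaturated fatty acids whose promoter is printed above, was at 121 CPM (109 to 132) and 61.2 CPM (53.8 to 69.4), a log2 ratio of 0.98 (0.75 to 1.21). Acly was at 82.8 CPM (73.6 to 92.7) and 49.3 CPM (42.7 to 56.7), and Acaca at 70.2 CPM (61.8 to 79.4) and 45.9 CPM (39.5 to 53.0). In each of these 3 the libraries' intervals were apart. Elovl5 and Acly stayed past 1.5-fold under all 16 other settings and Acaca under 10 of them, with a lowest log2 ratio of 0.30. Mvd, the mevalonate diphosphate decarboxylase, was at 18.7 and 11.4 CPM (log2 ratio 0.72, 0.15 to 1.29) on 67 and 46 UMIs. Hsd17b7, a reductase of sterol ketones, was at 10.1 and 5.95 CPM with an interval that spanned 0 (log2 ratio 0.76, -0.03 to 1.57). The leading members Fdps, Srebf2, Hmgcs1 and Cyp51 had log2 ratios between -0.10 and 0.07. Insig1 (log2 ratio -0.51, -0.96 to -0.07) and Insig2 (log2 ratio -0.52, -0.94 to -0.11) were the members furthest below 0. Cluster 23 held 72.9% and 93.3% of the cDC1-like cells, and cDC2 markers summed to 757 and 497 CPM in them with none at 0; the part of this in the ratios was not tested beyond the settings above.

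In cDC2-like cells 3 of 31 members were at least 1.5-fold higher and none lower, against 9.38% and 3.23% (12.6% either way) of 9741 genes. Elovl5 was again among them, at 119 CPM (111 to 127) and 73.2 CPM (63.5 to 84.0), a log2 ratio of 0.70 (0.48 to 0.92). Fasn was at 27.0 CPM (23.4 to 30.9) and 16.6 CPM (12.2 to 22.1), a log2 ratio of 0.70 (0.23 to 1.20). Acss2 was at 7.56 and 3.25 CPM, on 58 and 9 UMIs, with a wide interval (log2 ratio 1.22, 0.20 to 2.42), and its log2 ratio was 0.14 when clusters replaced the gates. Elovl5 was under 1.5-fold against genes of like span (0.48) or when cells were thinned to 5000 UMIs (0.40), and Fasn in 4 of 16 settings. Of the sterol enzymes none was past 1.5-fold. Fdps (log2 ratio 0.06, -0.08 to 0.21), Srebf2 (log2 ratio 0.27, 0.12 to 0.42), Hmgcs1 (log2 ratio 0.21, 0.03 to 0.40) and Acly (log2 ratio 0.29, 0.10 to 0.49) were the most abundant members. In this class 4 of 12 dissociation stress genes were at least 1.5-fold higher and none lower, and their part in the members' ratios was not tested.

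Mature dendritic-like cells, marked by Ccr7 and Fscn1, had the highest median of the members. Of 24 members, 7 were at least 1.5-fold higher and none lower, against 9.21% and 3.44% (12.6% either way) of 8090 genes, and 19 of 24 were above 0, against 60.1% of genes. Hmgcs1, the best counted of the 7, was at 101 CPM (91.3 to 111) in the knockout library and 62.6 CPM (52.8 to 73.6) in the WT library, a log2 ratio of 0.69 (0.41 to 0.97). Acaca was at 31.1 CPM (25.9 to 37.1) and 19.3 CPM (14.1 to 25.8), a log2 ratio of 0.69 (0.19 to 1.22). For both genes the intervals of the libraries were apart. Hmgcs1 fell under 1.5-fold in 2 of 16 other settings and Acaca in 3 of 15, with lowest log2 ratios of 0.49 and 0.40. Elovl6 had the largest ratio, at 18.9 and 5.14 CPM (log2 ratio 1.88, 0.99 to 2.89), on 76 and 12 UMIs; 5 WT cells held all 12. Scd2 was at 21.2 and 12.9 CPM (log2 ratio 0.72, 0.10 to 1.37), with free RNA able to account for 14.9% and 49.5% of its UMIs. Mvd, Nsdhl, a C4 demethylation enzyme, and Stard4 were past 1.5-fold with intervals that spanned 0, at 0.59 (-0.03 to 1.25), 0.65 (-0.04 to 1.39) and 0.68 (-0.06 to 1.48). Pmvk, highest in these cells, went the other way at 130.0 and 169 CPM (log2 ratio -0.38, -0.57 to -0.19). Srebf2 was at 167 and 122 CPM (log2 ratio 0.45, 0.25 to 0.66), Idi1 at 0.13 (-0.10 to 0.36) and Elovl5 at -0.09 (-0.31 to 0.13).

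Across classes a few members kept 1 direction; they were picked after their values were seen, and the classes share 2 libraries, so they are not independent. Srebf2 was above 0 in all 9 classes in which it was counted, Acaca in 8 of 8 and Stard4 in 8 of 8. Acly was above 0 in 8 of 9, the exception being neutrophil-like cells. Among immune classes the interval lay above 0 in 5 of 8 for Srebf2, 6 of 7 for Acaca, 6 of 8 for Acly and only 1 of 7 for Stard4. Between 47.8% and 61.9% of all genes were above 0 in a class, and the share that kept 1 direction over classes was not computed. Ebp was below 0 in 8 of 8, from -0.10 in cDC2-like cells to -1.29 in melanoma-like cells, with an interval below 0 in CD8 T-like, macrophage-like, monocyte-like and melanoma-like cells. Of the other regulators, Scap was above 0 in 7 of 8 classes and Srebf1 in 4 of 8. Insig1 was above 0 in 5 of 7 and Insig2 in 2 of 8. Pmvk was below 0 in 7 of 8 and Dhcr7, which completes cholesterol, in 5 of 6.

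The span of a gene on the genome moved with these directions. Over all genes, those of 50 kb or more had a higher median ratio than those under 10 kb in all 9 classes. In CD8 T-like cells the medians were 0.16 and -0.05, and in monocyte-like cells 0.24 and -0.14. Of the members, 8 span 50 kb or more (Srebf2, Scap, Acly, Acss2, Acaca, Me1, Elovl5 and Elovl6) and 5 under 10 kb (Mvd, Idi1, Fdps, Ebp and Insig1). No sterol enzyme is among the long members, and all the short ones but Insig1 are sterol enzymes. Differences between sterol and fatty acid genes were therefore not separated from span. In melanoma-like cells the 8 long members had a median of 0.39 and the 5 short ones -0.25, where all genes had 0.18 and -0.15. Measured against genes of like span, Acaca was still above 0 in all 8 classes, with 0.41 in melanoma-like cells, and Ebp below 0 in all 8, with -1.17 in melanoma-like cells. Srebf2 was then below 0 in NK-like (-0.08) and cDC1-like (-0.10) cells. The sources used here do not say whether reads in introns were counted, and the part of gene span in the ratios was not tested further.

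**Figure D5:**
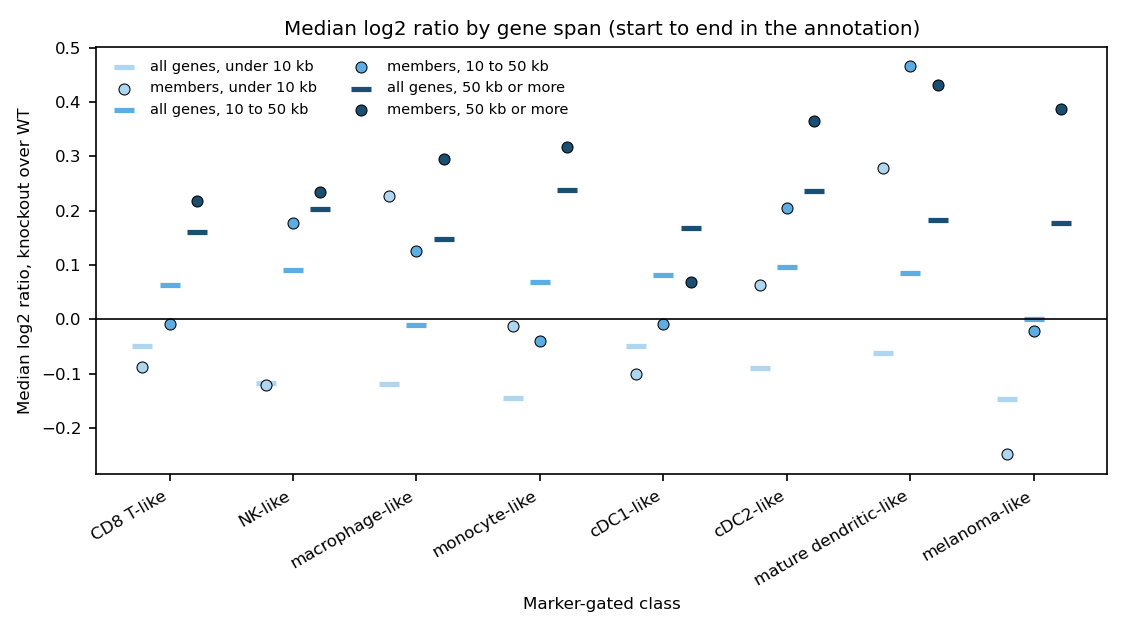
Median log2 ratio, knockout over WT, of all genes (dashes) and of members (circles) by the genomic span of the gene, for 8 classes. In each class the dash for genes of 50 kb or more lies above that for genes under 10 kb.

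Other genes of these pathways, which are not members, were read from lists of 12 sterol genes, 6 SREBP processing genes and 17 fatty acid genes. The sterol list was mostly above 0 in cDC1-like cells (9 of 10 counted) and in cDC2-like cells (10 of 11), against 59.98% and 60.9% of all genes, with medians of 0.48 and 0.22. In cDC1-like cells 3 of the 10 were past 1.5-fold higher, against 7.92% of all genes: Rdh11 (10.6 and 4.22 CPM), Acat2, which condenses acetyl-CoA at the start of the sterol pathway (17.6 and 7.93 CPM), and Npc1, a lysosomal sterol exporter (27.4 and 18.1 CPM). Npc2, its soluble partner, was lower at 359.5 and 559 CPM. Npc2 was also lower in cDC2-like cells at 364 and 548 CPM and in mature dendritic-like cells at 807 and 1344 CPM. In cDC2-like cells Tm7sf2, a sterol reductase, was higher at 5.74 and 2.16 CPM, on 44 and 6 UMIs. In macrophage-like cells 1 of 11 counted genes of the sterol list was past 1.5-fold higher, against 6.98% of all genes. In neutrophil-like cells it was 1 of 3, against 9.81%. None of the list was past 1.5-fold lower in either class.

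In NK-like cells Acat2 was higher at 10.9 and 3.17 CPM, on 46 and 7 UMIs, and Tmem97, which binds the sterol exporter Npc1, was lower at 7.79 and 14.5 CPM. None of the counted genes of the 3 lists (11, 6 and 14) in CD8 T-like cells was past 1.5-fold, and none of the SREBP processing genes was in any class. Of the fatty acid list, Aacs, which activates acetoacetate for lipid synthesis, was higher in cDC1-like cells at 30.5 and 14.9 CPM and in mature dendritic-like cells at 13.4 and 6.43 CPM. Elovl7, an elongase, was higher in NK-like cells at 23.4 and 14.5 CPM. In melanoma-like cells Mid1ip1, an activator of acetyl-CoA carboxylase, was lower at 13.8 and 28.6 CPM, of which free RNA could account for 27.4% and 8.02%, and Tm7sf2 was lower at 4.23 and 7.86 CPM.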

How the data were processed

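For 32285 genes in 2 libraries the authors deposited raw counts, that is UMIs of each gene in each barcode with no normalization. Cell Ranger 7.2.0 wrote the tables, per the file headers, on build mm10, per the submitters' processing notes. The counting annotation and the handling of intron reads are not stated in the sources. Positions and spans of genes were taken from GENCODE (GRCm38).

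Cells were called per library: barcodes above a UMI threshold (9261 and 16615), plus those of at least 500 UMIs that differed from free RNA (barcodes of at most 100 UMIs) in 10000 simulations at a false discovery rate of 0.01. Cells under 250 genes or over 10% mitochondrial UMIs were removed, leaving 11322 and 9234, and Scrublet (scanpy 1.11.5) doublets, 343 and 174, were removed. Marker gates required a score of 0.25, a margin of 0.05 and 3 detected markers; 1852 and 1327 cells stayed ungated. T cells without a subset gate (293 and 172) were left out. Leiden clusters (leidenalg 0.10.2, resolution 1.5) served as an alternative. Class and library sums gave CPM, with exact Poisson and conditional 95% intervals. The intervals and calls were checked on counts simulated with Poisson error alone, without single cells. That check cannot show how the intervals hold where few cells carry most UMIs of a gene.

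The members and lists were chosen with earlier results of these data known, and gate thresholds, the cell cycle limit and the splits of classes were set after values were seen. Genes named in full were past 1.5-fold with an interval excluding 1, at most 10 per class, plus the 4 most abundant others; members named outside this rule were chosen after their values were seen. Medians were given for at least 10 members. No member overlaps another counted gene on the same strand, and 9 overlap one on the other strand.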

Additional observations from a re-analysis of the deposited data

Results flagged for a closer look

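For 5 members, 1 class had an interval above 0 and another an interval below 0, and their log2 ratios were at least 1 unit apart. The limit of 1 log2 unit was set after the values were seen, each group has 1 library, and none of the differences was tested. Acss2 had a log2 ratio of 1.22 in cDC2-like and -0.30 in macrophage-like cells, a difference of 1.52, with 9 WT UMIs in cDC2-like cells. For Fads2 it was 0.47 in macrophage-like and -1.34 in monocyte-like cells, 1.82 apart, at levels of at most 3.58 CPM in both classes. Fads1 stood at 0.51 in CD8 T-like and -0.64 in monocyte-like cells, 1.15 apart. Free RNA could account for 33.7% and 29.2% of its UMIs in monocyte-like cells. Scd1 stood at 0.54 in melanoma-like and -0.61 in macrophage-like cells, also 1.15 apart. Its macrophage-like value rested on 30 and 107 UMIs, of which free RNA could account for 66.2% and 54.9%. Mvd stood at 0.72 in cDC1-like and -0.39 in melanoma-like cells, 1.10 apart.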

How the results depend on the processing

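No paired analysis was possible because each group has 1 library. Of 266 recomputed class medians and counts, 221 stayed within their limits and 45 moved. A count moved when it left 0 or changed by more than 1.5-fold, and a median when it left the median counting bounds of its members. These bounds are wide, at -0.05 to 0.85 in mature dendritic-like cells. The macrophage-like median of 0.06 in place of 0.23 stayed within them. Some settings also dropped almost no cells, so 221 is not a measure of stability. In CD8 T-like cells the count past 1.5-fold, 0, became 1 above the UMI threshold, at 5% mitochondrial UMIs, with doublets, clusters in place of gates, clusters weighted alike or like-span centring, 2 without the 10 leading cells of each gene, 3 with cells scaled alike or free RNA subtracted, and 6 without cycling cells, where the median was -0.19 in place of 0.03. In NK-like cells the count of 2 became 4 and 0 at minima of 20 and 200 UMIs, 7 above the UMI threshold, 5 in cells of at least 10000 UMIs, 6 without the leading cells, 1 under the stricter gate, clusters or thinning to 5000 UMIs, and 0 without cycling cells or with cells scaled alike. In macrophage-like cells 2 became 1 at a minimum of 200, at 1000 UMIs per cell, with clusters or with weighted clusters, and 0 with like-span centring. In monocyte-like cells 3 became 1 at a minimum of 200, with cells scaled alike or without the leading cells, and 7 above the UMI threshold, where the median was -0.23. In cDC1-like cells 5 became 3 at a minimum of 200. In cDC2-like cells 3 became 11 without the leading cells. In mature dendritic-like cells 7 became 12 and 1 at minima of 20 and 200, 3 when thinned or scaled alike, 4 with like-span centring and 13 without the leading cells. In melanoma-like cells 3 became 6 when thinned or with free RNA subtracted, 7 without cycling cells, 11 with cells scaled alike and 6 without the leading cells, where the median was -0.24. Those 10 cells are a larger share of the smaller library. Idi1 in NK-like cells reversed, to -0.056 without cycling cells and -0.16 with cells scaled alike. With cells scaled alike, 22 members had the same highest class in both libraries in place of 28, and 12 were highest in melanoma-like cells in place of 18. The 3 alternatives on cluster weights, gene span and cells of at least 10000 UMIs were chosen after seeing the data. With 1 library per group, depth narrows counting error but not the spread between tumours.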

Other observations

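Genes that sense or export sterol were read from a separate list of 9. Nr1h3, the nuclear receptor LXR alpha that is switched on by oxysterols, was lower in macrophage-like cells at 48.2 and 78.7 CPM (log2 ratio -0.71, -0.79 to -0.62) and in monocyte-like cells at 15 and 26.0 CPM (log2 ratio -0.80, -1.02 to -0.58). Ch25h, which makes 25-hydroxycholesterol, an oxysterol that holds SREBPs back, was higher in macrophage-like cells at 66.2 and 43.2 CPM (log2 ratio 0.62, 0.53 to 0.70). In these macrophage-like cells 1 of the 9 genes was at least 1.5-fold higher and 1 lower, against 6.98% and 5.31% of all genes. In melanoma-like cells 1 of 7 genes counted was higher and 2 were lower, against 6.31% and 8.76% of all genes. Abca1, a sterol exporter, was higher in melanoma-like cells at 36.4 and 19.4 CPM (log2 ratio 0.90, 0.69 to 1.11), with free RNA able to account for 30.6% and 30.7% of its UMIs. The lower ones were Nr1h3, on 2 and 60 UMIs, and Abcg1, another exporter, on 11 and 85 UMIs; the free RNA estimate could account for all UMIs of both genes in both libraries. In CD8 T-like cells none of the 8 genes counted was past 1.5-fold. The other settings were read for members only, so how ratios of genes outside the members depend on them is not known. That includes the mix of clusters, which differed between the libraries in macrophage-like cells.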
